A study of Mus musculus with 12 samples.

Results

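The comparison is of curcumin-treated with untreated BV-2 cells. BV-2 is a mouse line of immortalised microglia, the macrophages of the brain. Its members are 6 of the 12 arrays of the series, chosen by their treatment label: 3 arrays of cells given 20 µM curcumin, a polyphenol of turmeric, and 3 arrays of cells left without treatment. The curcumin group had 6 h of treatment, and the labels state neither a time nor a vehicle for the untreated group. The other 6 arrays, of cells given LPS (lipopolysaccharide from the outer membrane of bacteria) at 100 ng/ml, with or without curcumin, are used only in the last comparison. Each of 3 slides carried 1 array of every group, numbered by replicate, and the groups always took the same position on their slide, so group and position cannot be told apart. BV-2 is 1 line, and the labels do not say that the replicates were separate cultures, so p-values measure the spread between these arrays, which may be technical.

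Curcumin is an electrophile that binds reactive cysteines. Cells meet such compounds with the NRF2 programme (antioxidant enzymes and Hmox1, which degrades haem), the integrated stress response (in which the factor ATF4 raises Ddit3, Trib3 and amino acid genes) and the heat shock response (chaperones under HSF1). Microglia watch their surroundings with Toll-like, purinergic, chemokine and Fc receptors, and curcumin is widely studied as a compound that dampens signalling through such receptors.

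The label was checked against marker genes. The macrophage genes Csf1r, Adgre1, Aif1 and Tyrobp were bright in both groups, whereas Tmem119, P2ry12 and Sall1, which mark microglia in the brain, were dim: P2ry12 read 1.48, 0.752 and 1.15% with curcumin and 3.01, 1.94 and 0.902% without treatment, where 100% is the array's 75th percentile of signal over all probes other than controls. Of 38 marker genes of neurons, astrocytes, oligodendrocytes, fibroblasts and lymphocytes, 14 could be tested and none was called on both of the scalings described next (limma, 10 called higher on 75th percentile and 5 lower on spike-in scaling, with 10 at an unadjusted p below 0.05 on the first). These calls compare the groups and do not show which cells they hold. Most of the tested markers, among them all 5 of lymphocytes and all 4 of oligodendrocytes, were well above background on every array. Between 60.6 and 65.4% of spots were well above background on the curcumin arrays, against 59.3 to 61.1% on the untreated arrays. Arrays correlated at 0.986 to 0.991 within the curcumin group, at 0.991 to 0.997 within the untreated group, and at 0.930 to 0.957 between them. The values are Agilent processed intensities, and with 3 arrays per group the number of arrays limits the precision.

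Most of the measured transcriptome moved relative to the spike-in controls, the E1A RNAs added in known amounts before labelling. The 75th percentile of the signal lay 0.366 ± 0.148 above the spike-in median on curcumin arrays, against 1.453 ± 0.169 on untreated arrays (log2, SD, n = 3 each). The difference was -1.087, with -1.036, -1.175 and -1.049 in the 3 pairs, and every curcumin array lay below every untreated array (exact permutation test, two-sided p = 0.1, the smallest 3 against 3 arrays can give). The array median moved by only -0.249 (exact permutation p = 0.2). In bulk RNA, fewer cells and less RNA per cell cannot be told apart, and the labels do not say whether spike-ins were added per cell or per amount of RNA. The scaling therefore decides the sign of most genes: of 19373 genes and transcripts tested, 9372 were called higher and 3301 lower on 75th percentile scaling (limma, adjusted p below 0.05; 48.4% and 17% of all tested), but 1919 higher and 12891 lower on spike-in scaling (9.91% and 66.5%). The median log2 fold change over all genes was 0.41 on the first scaling and -0.68 on the second.

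The shift depended on brightness, so that no single constant per array removes it. On spike-in scaling the median log2 fold change was -0.02 in the dimmest of 10 equal brightness classes, -1.12 in the sixth and -0.48 in the brightest, and each pair showed this dip. Genes called in the same direction on both scalings numbered 1919 higher and 3301 lower (9.91% and 17% of those tested). These were all 1919 called higher on spike-in scaling and all 3301 called lower on 75th percentile scaling. The spike-in and 75th percentile scalings differ only by a constant per array, so they are not independent checks. A call on both is the call on the stricter scaling for its direction. Of these genes, 1799 and 3192 held on all 5 scalings tried, of which only quantile scaling does more than subtract a constant from each array. Below, "rose" and "fell" are used only of genes called on both scalings. Log2 fold changes (with SE), folds and bounds are those on 75th percentile scaling unless another is named. The share that rose was 40.4% in the dimmest class and 0.258% in the brightest, while the share that fell peaked at 31.9% in the sixth class. Of the 1919 that rose, 695 were well above background only with curcumin. They passed the filter through the curcumin arrays alone, so the shares that rose are partly set by the filter. Counts of list members below are to be read beside 9.91% that rose and 17% that fell over all genes tested.

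**Figure D1:**
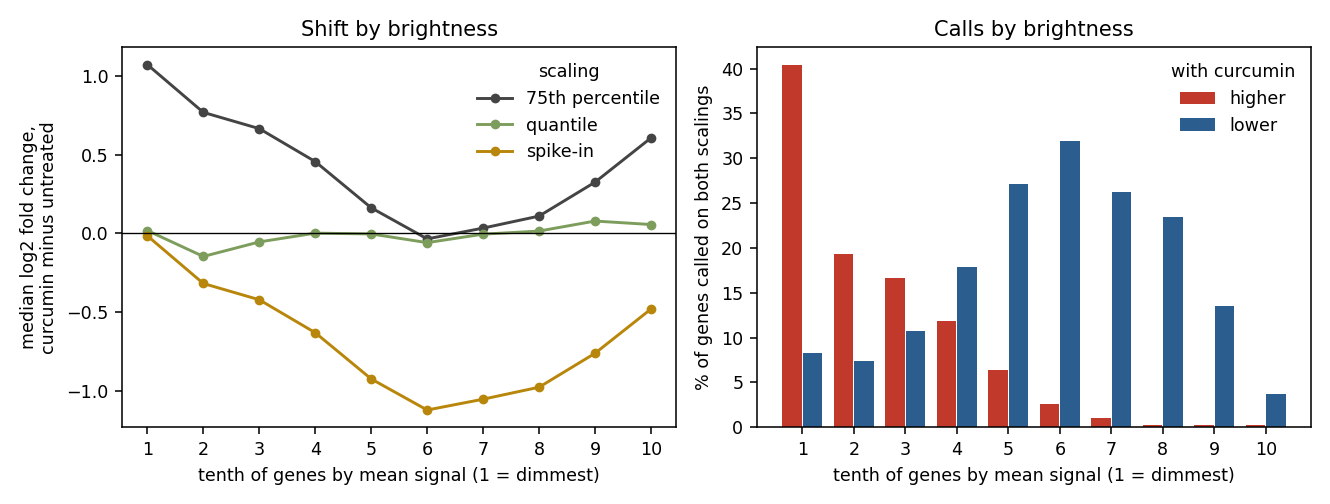
Left, the median log2 fold change (curcumin minus untreated) of genes split into 10 equal classes by mean signal, on 3 scalings; right, the percentage of each class called higher or lower on both 75th percentile and spike-in scaling. Medians dip in the middle classes on 75th percentile and spike-in scaling, and the share called higher is 40.4% in the dimmest class and 0.258% in the brightest. Genes well above background only with curcumin are included, so the shares called higher are partly set by the filter.

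Hmox1, which encodes the haem-degrading enzyme haem oxygenase 1, was among the brightest genes of the treated cells. It read 43834, 33138 and 35879% of the 75th percentile on curcumin arrays, against 3926, 1874 and 3300.0% on untreated arrays, with no overlap. The log2 fold change was 3.69 ± 0.18, or 12.9-fold (limma, adjusted p = 8.56e-06). Scaled to the spike-ins it was 2.60 (limma, adjusted p = 4.29e-10). Of 28 haem and iron genes tested, 2 rose and 2 fell, with a median of 0.33 against 0.41 over all genes. The other riser was the haem-scavenging Hpx (2.98), and the fallers were the haem exporter Flvcr1 (-0.86) and Ncoa4 (-0.77), the adaptor that takes ferritin to lysosomes.

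Other NRF2 targets were higher mainly on 75th percentile scaling. Of 29 NRF2 targets tested, 21 were called higher on 75th percentile scaling and 2 on both scalings, Hmox1 and Sqstm1 (an autophagy receptor that binds KEAP1), each gene being counted by its brightest probe. Sqstm1 gave 1.51 on 75th percentile and only 0.43 on spike-in scaling (limma, adjusted p = 0.0438 on the latter). The list median was 0.72 on 75th percentile scaling and -0.37 on spike-in scaling, against 0.41 and -0.68 over all genes. Nqo1, a quinone reductase, read 11.3, 19.5 and 20.7% with curcumin and 3.38, 7.59 and 9.3% without, groups that did not overlap. Its log2 fold change was 1.42 ± 0.17 (limma, adjusted p = 0.000551) on 75th percentile scaling, or 0.33 when scaled to the spike-ins (adjusted p = 0.118). Gclm, a glutathione synthesis subunit, gave 1.48 and 0.39 on these scalings, and Slc7a11, the cystine importer, 1.67 and 0.58 at its brightest probe. Its other probes gave 3.97 and 1.76 on 75th percentile and 2.89 and 0.67 on spike-in scaling, past the threshold on both in a fit over all probes (limma, adjusted p = 4.21e-13 and 0.0194 on spike-in scaling). In that fit the brightest probe also passed on spike-in scaling (adjusted p = 0.0417), against 0.0654 in the fit over genes. Txnrd1 (thioredoxin reductase 1) and Srxn1 (sulfiredoxin) changed sign between scalings, with 0.81 and 0.61 on 75th percentile and -0.28 and -0.48 on spike-in scaling.

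Of the stress lists, that of ATF4 and CHOP targets had the largest share of members that rose. Of 28 tested, 7 rose (25%) and 0 fell, 22 were called higher on 75th percentile scaling, and the median was 0.99, or -0.09 on spike-in scaling. Ddit3, the factor CHOP, read 498, 421 and 658% with curcumin and 46, 44.1 and 60.7% without. Trib3, a pseudokinase that restrains ATF4 and AKT, read 2763, 2529.9 and 3491% with curcumin and 259, 236 and 445% without. In neither gene did the groups overlap, and the log2 fold changes were 3.38 ± 0.14 and 3.27 ± 0.16 (limma, adjusted p = 4.08e-06 and 7.68e-06). Chac1, which degrades glutathione, read 29.6, 40.8 and 112% with curcumin and 1.34, 2.28 and 10.3% without. The third curcumin array and the third untreated array were each the highest of their group, and the 3 pairs gave log2 fold changes of 4.46, 4.16 and 3.45 (4.03 ± 0.21, adjusted p = 1.09e-05). Ppp1r15a (GADD34, which reverses the translation block) rose by 2.61, the stress sensor Sesn2 by 2.99, the secreted factor Gdf15 by 2.50 and the chromatin-associated Nupr1 by 1.92. Atf3 had a log2 fold change of 1.40 (adjusted p = 0.000412), or 0.31 when scaled to the spike-ins (adjusted p = 0.137), so it was called on the first scaling only. Asns (asparagine synthetase) gave 0.80 and -0.29. Of 20 aminoacyl-tRNA synthetases, which ATF4 also controls, 0 rose and 0 fell on both scalings, with a median of 0.61 (limma, 16 called higher on 75th percentile and 13 lower on spike-in scaling).

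Heat shock and endoplasmic reticulum genes were called in few members. Hspa1a, the inducible HSP70, read 11.2, 7.64 and 14.7% with curcumin and 0.238, 0.253 and 0.416% without, where no array showed it well above background, and rose at least 18.1-fold (limma, adjusted p = 2.18e-06). The bounds set the curcumin mean against the lowest signal well above background on each untreated array, or the probe's own if higher. On spike-in scaling bounds on rises were lower, at 8.54-fold for Hspa1a. Its near-identical copy Hspa1b rose at least 3.83-fold (1.80-fold on spike-in scaling), a value that may share signal with Hspa1a. The small heat shock protein gene Hspb1 rose by 1.73 ± 0.31, or 0.64 on spike-in scaling, but was not called on quantile scaling (limma, 0.65, adjusted p = 0.182). These 3 of 23 cytosolic heat shock genes rose (2 on all 5 scalings) and 0 fell, with a median of 0.68. Of 21 endoplasmic reticulum chaperone genes only Dnajb9, a co-chaperone of BiP, rose on both scalings, with 143, 253 and 344% on curcumin arrays and 24.5, 22.3 and 26.1% on untreated arrays (3.26 ± 0.24). That call rests on 1 of 3 probes, since the others gave 0.70 and 0.43, or -0.39 and -0.66 on spike-in scaling. Of 31 proteasome subunits, 0 were called on both scalings (limma, 30 called higher on 75th percentile and 13 lower on spike-in scaling).

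Promoters of 5 of these risers are shown because each holds a match to a motif of the response it belongs to, and they were chosen for that match. In all, 4 motif forms were searched. Shown are the 200 bases before the start site in RefSeq (GRCm38.p6), 5′ to 3′, with matches to TGATGNAA (the C/EBP-ATF response element) or GAANNTTC (a heat shock element dyad) on either strand in capitals.
Chac1 (chr2:119351042-119351241, plus strand): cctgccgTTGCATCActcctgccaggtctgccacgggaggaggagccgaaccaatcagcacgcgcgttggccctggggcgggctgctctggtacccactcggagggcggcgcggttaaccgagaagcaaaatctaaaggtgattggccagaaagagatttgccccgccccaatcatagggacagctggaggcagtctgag
Nupr1 (chr7:126625471-126625670, minus strand): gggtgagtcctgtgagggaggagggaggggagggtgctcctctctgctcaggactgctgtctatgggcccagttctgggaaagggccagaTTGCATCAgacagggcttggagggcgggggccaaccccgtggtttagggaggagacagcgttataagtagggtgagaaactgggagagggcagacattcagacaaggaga
Hspa1a (chr17:34972157-34972356, minus strand): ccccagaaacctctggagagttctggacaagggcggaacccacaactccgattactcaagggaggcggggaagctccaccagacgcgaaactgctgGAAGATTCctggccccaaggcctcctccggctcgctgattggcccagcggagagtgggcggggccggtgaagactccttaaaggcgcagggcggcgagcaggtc
Hspa1b (chr17:34959239-34959438, minus strand): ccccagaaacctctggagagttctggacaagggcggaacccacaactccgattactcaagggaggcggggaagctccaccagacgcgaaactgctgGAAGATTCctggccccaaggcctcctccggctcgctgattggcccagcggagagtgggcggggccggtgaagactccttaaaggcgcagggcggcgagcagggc
Hspb1 (chr5:135887719-135887918, plus strand): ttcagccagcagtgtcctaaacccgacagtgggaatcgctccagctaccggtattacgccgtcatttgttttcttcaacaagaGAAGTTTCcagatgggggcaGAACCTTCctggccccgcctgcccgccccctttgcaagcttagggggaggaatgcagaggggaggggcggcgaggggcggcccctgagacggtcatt
The Hspa1a and Hspa1b stretches differ at 1 of 200 bases. In the 250 bases before the start, TGATGNAA occurred in 2 of the 7 ATF4 and CHOP targets that rose and in 5 of 18 that were not called on both scalings, against 3.91% of 27025 genes with a promoter in the table. GAANNTTC occurred in all 3 heat shock genes that rose and in 4 of 15 that were not called, against 7.73% of those genes. Over all genes that rose the shares were 4.69% and 6.86%, and over all that fell 2.36% and 5.95%, beside 2.61% and 6.21% of all tested genes. The longer form of the heat shock element, with a further GAA repeat, occurred in 2 of 19 listed heat shock genes and 0.514% of all genes. The antioxidant element TGACNNNGC occurred in 9 of 26 NRF2 targets and 11.5% of all genes. It occurred in 12.4% of genes that rose and 13.7% of those that fell, beside 13.7% of all tested genes. A match describes letters, not binding.

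**Figure D2:**
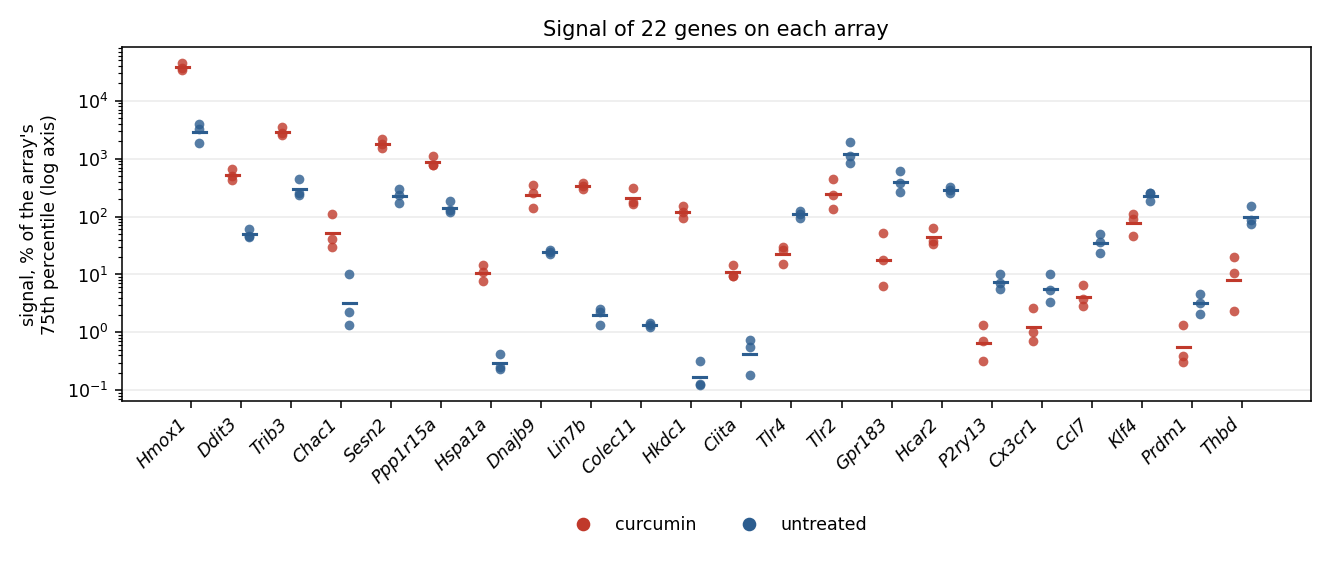
Signal of 22 genes on each array as a percentage of the array's 75th percentile (log axis); red points are the 3 curcumin arrays, blue points the 3 untreated arrays, and lines mark means of log values. Red lies above blue without overlap for the 12 genes from Hmox1 to Ciita, and below it without overlap for the 10 genes from Tlr4 to Thbd.

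Several receptors with which microglia sense microbes fell. Tlr2, the receptor of bacterial lipoproteins, read 449, 235 and 132% with curcumin and 1904, 1092 and 855% without (-2.33 ± 0.17, limma, adjusted p = 5.15e-05). Tlr4, the LPS receptor, read 29.4, 26.4 and 15.4% with curcumin and 126, 110.3 and 93.4% without (-2.25 ± 0.17, adjusted p = 5.66e-05). For both genes every curcumin array lay below every untreated array, and curcumin replicate 3 was the lowest. The partners of Tlr2 fell too, with log2 fold changes of -2.35 for Tlr1 and -1.83 for Tlr6, and Tlr3, which detects double-stranded RNA, was well above background on 0 of 3 curcumin arrays, at least 3.29-fold lower (0.11 on the log2 scale with normexp correction). Of 22 Toll-like receptors and adaptors tested, 13 fell (59.1%) and 0 rose, with a median of -0.71 on 75th percentile and -1.80 on spike-in scaling, beside 0.41 and -0.68 over all genes. With normexp correction the list median was -0.21.

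Many receptors for chemoattractants and nucleotides fell as well. Gpr183, a receptor for oxysterols that guides immune cell migration, had the lowest fold change among genes with a symbol that 2 or more arrays of each group showed well above background. It read 51.3, 17.9 and 6.26% with curcumin and 612, 384 and 260.1% without (-4.46 ± 0.31, limma, adjusted p = 4.17e-05), and its curcumin arrays differed among themselves by more than the untreated ones. Of 16 chemokine and attractant receptors tested, 9 fell and 2 rose, with a median of -0.79, whose sign normexp correction turned (0.08). Cx3cr1, the fractalkine receptor, read 2.59, 1.03 and 0.709% with curcumin and 10.3, 5.38 and 3.28% without. It was dim in both groups, which did not overlap (-2.19 ± 0.15), and its other tested probe had the opposite sign (log2 fold change 0.998, adjusted p = 0.0225). The risers were Cxcr2 (2.66) and Cmklr1 (2.36), the chemerin receptor, both under 10% of the 75th percentile. Of 16 purinergic receptors, 6 fell and 0 rose, while 6 were called higher on 75th percentile scaling only. Their median was -0.20, and normexp correction turned its sign (0.24). The fallers included P2ry13 (-3.48, with 1 of 3 curcumin arrays well above background), P2ry6 (-2.43, a trigger of phagocytosis) and P2ry1 (-2.14). Hcar2, the receptor for niacin and ketone bodies, read 63.5, 38.2 and 34.2% with curcumin and 329.7, 259 and 288% without (-2.74 ± 0.18).

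Chemokine genes fell in part, and cytokine genes moved both ways. Of 14 chemokines tested, 6 fell and 0 rose, with a median of 0.03 that had no stable sign (0.25, 0.19 and -0.35 without pairs 1, 2 and 3). Ccl3 read 1294, 1140.4 and 1517% with curcumin and 4154, 3584 and 4465% without, and Ccl7 read 6.62, 2.82 and 3.73% with curcumin and 48.9, 23.6 and 36% without. Both encode attractants of monocytes, neither overlapped between groups, and the log2 fold changes were -1.63 ± 0.14 and -3.07 ± 0.15 (limma, adjusted p = 0.000119 and 7.73e-06). Ccl4 fell by 1.56 and Ccl2 by 1.05 on the same scale. Of 18 inflammatory cytokines and mediators, 7 fell and 4 rose, with a median of 0.12 (0.42 with normexp correction). Csf3 (G-CSF) read 4.64, 6.15 and 6.29% with curcumin and 0.222, 0.15 and 0.126% without, and rose at least 9.49-fold (4.47-fold on spike-in scaling). Vegfa rose by 1.77 (another of its probes gave 0.66, or -0.43 on spike-in scaling) and Ptges, the terminal synthase of prostaglandin E2, by 1.72. Scaled to the spike-ins, Vegfa gave 0.68 and Ptges 0.63. Il1b read 1.5, 0.769 and 0.958% with curcumin and 4.91, 2.58 and 1.51% without, so the highest curcumin array all but met the lowest untreated one (-1.37 ± 0.24). It was well above background on 1 curcumin array, and normexp background correction turned its sign (0.29). Tnf read 139, 96.4 and 81.6% with curcumin and 180.4, 129 and 117% without, groups that overlapped although each pair was lower with curcumin (-0.44 ± 0.14, adjusted p = 0.0277). The Tnf call was lost without any 1 of the pairs (limma, adjusted p = 0.141, 0.117 and 0.0613). Ptgs2 (cyclooxygenase 2) fell by 1.104, a sign that normexp correction also turned (0.13), while Il6 had a log2 fold change of -0.04 (adjusted p = 0.854) and was well above background on 1 of 3 curcumin arrays.

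Interferon-stimulated genes mostly fell or were not called on both scalings. Of 32 tested, 14 fell (43.8%, beside 17% of all genes) and 1 rose, with a median of -0.26 (-0.11 without pair 3). Ifi47, an interferon-inducible GTPase, read 2.61, 1.66 and 1.96% with curcumin and 11.1, 7.53 and 12.1% without (-2.30 ± 0.16, limma, adjusted p = 4.54e-05). Parp14 fell by 2.05 (its other probes gave 0.14 and -1.13) and the mitochondrial kinase gene Cmpk2 by 1.39. Isg20, an exonuclease gene, went the other way, with 65.3, 73.1 and 93.7% on curcumin arrays and 15.3, 12.1 and 12.7% on untreated arrays (2.52 ± 0.18). Of 19 NF-kB genes, 4 fell (21.1%, near the 17% of all genes) and 0 rose, with a median of -0.30 (-0.07 without pair 3 and -0.17 with normexp correction). They were the inhibitors Nfkbie (-1.42), Tnfaip3 (-1.32) and Tnip2 (-0.66) and the ubiquitin ligase gene Birc2 (-0.62, with the call lost without pair 3). Nfkbia (IkBa) gave 0.08 on 75th percentile scaling (adjusted p = 0.707), against -1.002 when scaled to the spike-ins (adjusted p = 0.000158). Over a panel of 21 genes often measured after curcumin, 3 rose (Hmox1, Ddit3 and Hspa1a) and 6 fell (Tlr2, Tlr4, Il1b, Ptgs2, Ccl2 and Tnf). Of the panel genes not called on both scalings, Arg1 (arginase 1) had a log2 fold change of 0.79 on 75th percentile and -0.30 on spike-in scaling, and Pparg, a lipid-sensing nuclear receptor, gave -0.04 and -1.13.

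Lineage genes of microglia were divided. Of 30 microglia and macrophage genes tested, 11 fell (36.7%) and 1 rose, with a median of 0.18 (0.02 without pair 3, 0.27 without pair 1 and 0.28 with normexp correction), beside -0.91 on spike-in scaling. Apart from Cx3cr1 and P2ry13, the fallers included Gpr34 (-2.24, or 0.06 with normexp correction), a lysophospholipid receptor, and the lineage factors Irf8 (-1.74) and Runx1 (-1.64). The riser was Gas6 (2.44), a bridging ligand for the efferocytosis receptors. In the class II antigen presentation pathway, 2 of 10 tested genes rose and 2 fell. Ciita, the master regulator of class II genes, read 9.45, 9.3 and 14.8% with curcumin and 0.753, 0.567 and 0.187% without (4.66 ± 0.47, limma, adjusted p = 0.000258). It was well above background on only 1 of 3 untreated arrays, so the size of that rise is uncertain. H2-DMa, which loads peptides onto class II molecules, read 43.8, 40.9 and 55.8% with curcumin and 5.01, 3.17 and 4.94% without (3.44 ± 0.16). The class II promoter factors Rfx5 (-0.84) and Rfxap (-0.67, with -0.26 at its other probe) fell. Of 18 scavenger and phagocytic receptors 4 fell (22.2%, beside 17% of all genes) and 0 rose. The fallers included the efferocytosis receptor Mertk (-1.22) and the Fc receptors Fcgr1 (-0.67) and Fcgr2b (-0.44). Fcgr1 lost its call without pair 2 and Fcgr2b without pair 1 or 2. Of 23 adhesion genes 5 fell (21.7%) and 1 rose (4.35%), beside 17% and 9.91% of all genes. The riser was Pecam1, an adhesion molecule of endothelium and leukocytes. It read 9.11, 7.99 and 10.7% with curcumin and 0.161, 0.148 and 0.157% without, and rose at least 15.5-fold (7.3-fold on spike-in scaling).

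Early response genes and kinase phosphatases split. Of 23 immediate early genes, 9 fell and 2 rose, with a median of -0.13 that turned to 0.02 without pair 3 and with normexp correction and was -0.38 without pair 2. Fos read 14, 10 and 8.61% with curcumin and 49.4, 31.3 and 25.2% without (-1.67 ± 0.14, limma, adjusted p = 0.000125), and the Krüppel-like factor Klf4 read 109, 91.1 and 45.5% with curcumin and 259, 251 and 184% without (-1.58 ± 0.18). Both fell without overlap between groups. The risers were the nuclear receptor Nr4a2, with 128, 112 and 139% on curcumin arrays and 14, 17 and 15.3% on untreated arrays (3.03 ± 0.16), and Egr1, at least 4.93-fold (2.32-fold on spike-in scaling). Of 13 MAP kinase phosphatase and Sprouty genes, 4 fell and 2 rose. Dusp6, which acts on ERK, fell by 2.29 and Dusp7 by 1.55, whereas Dusp16, which acts on JNK and p38, read 72, 80.7 and 160.0% with curcumin and 2.77, 2.46 and 3.97% without (5.02 ± 0.17). Dusp8, another JNK and p38 phosphatase, rose at least 9.8-fold (4.61-fold on spike-in scaling).

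Death and survival genes fell more often than they rose, as did all genes tested (17% fell and 9.91% rose). Of 13 BCL2 family genes, 6 fell (46.2%) and 1 rose (7.69%), with a median of -0.41 (-0.26 without pair 3). Bcl2l1, which encodes the survival protein BCL-XL, read 38.5, 40.7 and 38.2% with curcumin and 88.4, 85.8 and 130.0% without (-1.35 ± 0.18, limma, adjusted p = 0.000985). The death-promoting Bid (-1.46) and Bmf (-2.38, with 0.44 and -2.25 at its other probes) fell with it, and Bbc3 (PUMA) rose, with 1168, 971 and 1425% on curcumin arrays and 415, 380.5 and 415% on untreated arrays (1.54 ± 0.15). Scaled to the spike-ins, Bbc3 gave only 0.455 (limma, adjusted p = 0.0357). Of 20 p53 targets, 7 fell (35%) and 2 rose (10%), Bbc3 and the death receptor gene Fas. Fas gave 1.96, or 0.87 on spike-in scaling with -0.053 in pair 1. Cdkn1a (p21, a cell cycle inhibitor) gave 0.79 and -0.30 on the 2 scalings.

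Lipid, glucose and zinc genes changed in few members. The shares that fell ran from 18.2% to 26.7% over these lists, beside 17% of all genes tested. Of 22 cholesterol synthesis genes 4 fell and 0 rose: Hmgcs1, an early enzyme of the pathway, read 490.1, 473 and 247% with curcumin and 1738, 1682 and 1500.2% without (-2.09 ± 0.20, limma, adjusted p = 0.000189). The other Hmgcs1 probe gave a log2 fold change of 0.06 (adjusted p = 0.808). Of 15 LXR targets, 4 fell and 0 rose, among them the cholesterol exporters Abca1 (-1.21) and Abcg1 (-0.87). Of 27 glycolysis and hypoxia genes, 5 fell and 1 rose, with hexokinase 2 (Hk2) at 908, 1029 and 831% on curcumin arrays and 2531, 2280.0 and 2719% on untreated arrays (-1.45 ± 0.16). Of 16 matrix protease and inhibitor genes, 3 fell and 2 rose, Mmp13 (1.71, or 0.62 on spike-in scaling) and Mmp3 (at least 2.79-fold, or 1.31-fold on spike-in scaling). Of 17 metallothionein and zinc transporter genes, 4 fell and 0 rose, including Mtf1 (-1.68), the zinc-sensing activator of metallothioneins, whose other probe gave 0.60 (adjusted p = 0.00836).

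For housekeeping sets the scaling decided the direction. Of 48 ribosomal protein genes, all 48 were called higher on 75th percentile scaling and 6 were called lower on spike-in scaling, with medians of 0.74 and -0.35 (limma). Of 42 respiratory chain subunits, 41 were called higher on the first and 11 lower on the second, with medians of 0.70 and -0.39. None of these 90 genes was called in 1 direction on both scalings. Of 26 mitosis genes 7 fell and 0 rose, with a median of -0.14 (-0.04 without pair 1) and the kinase gene Plk1 at -0.59, and of 32 DNA replication genes 3 fell and 0 rose, with a median of 0.44 and cyclin E1 (Ccne1) at -1.06. Of 38 lysosome and autophagy genes, 2 fell, Tfeb (-0.48) and Fnip1 (-0.43, with values above 0 at its other probes), and Sqstm1 rose. The proliferation marker Mki67 fell by 0.52 (-0.31 at its other probe, adjusted p = 0.179). Of 17 genes commonly used as normalisers, 13 were called higher on 75th percentile and 6 lower on spike-in scaling, and Tbp fell on both (-0.44). The calls of Tfeb, Fnip1 and Tbp were lost without any 1 of the pairs, that of Plk1 without pair 1 or 3, and that of Mki67 without pair 1 or 2 (limma, adjusted p between 0.0514 and 0.259). Among the other mitosis genes that fell, Kif11 lost its call without pair 2 and Ttk without pair 1 (limma, adjusted p = 0.0531 and 0.0798). The other Kif11 probe had the opposite sign (1.34, limma over all probes, adjusted p = 0.00216).

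**Figure D3:**
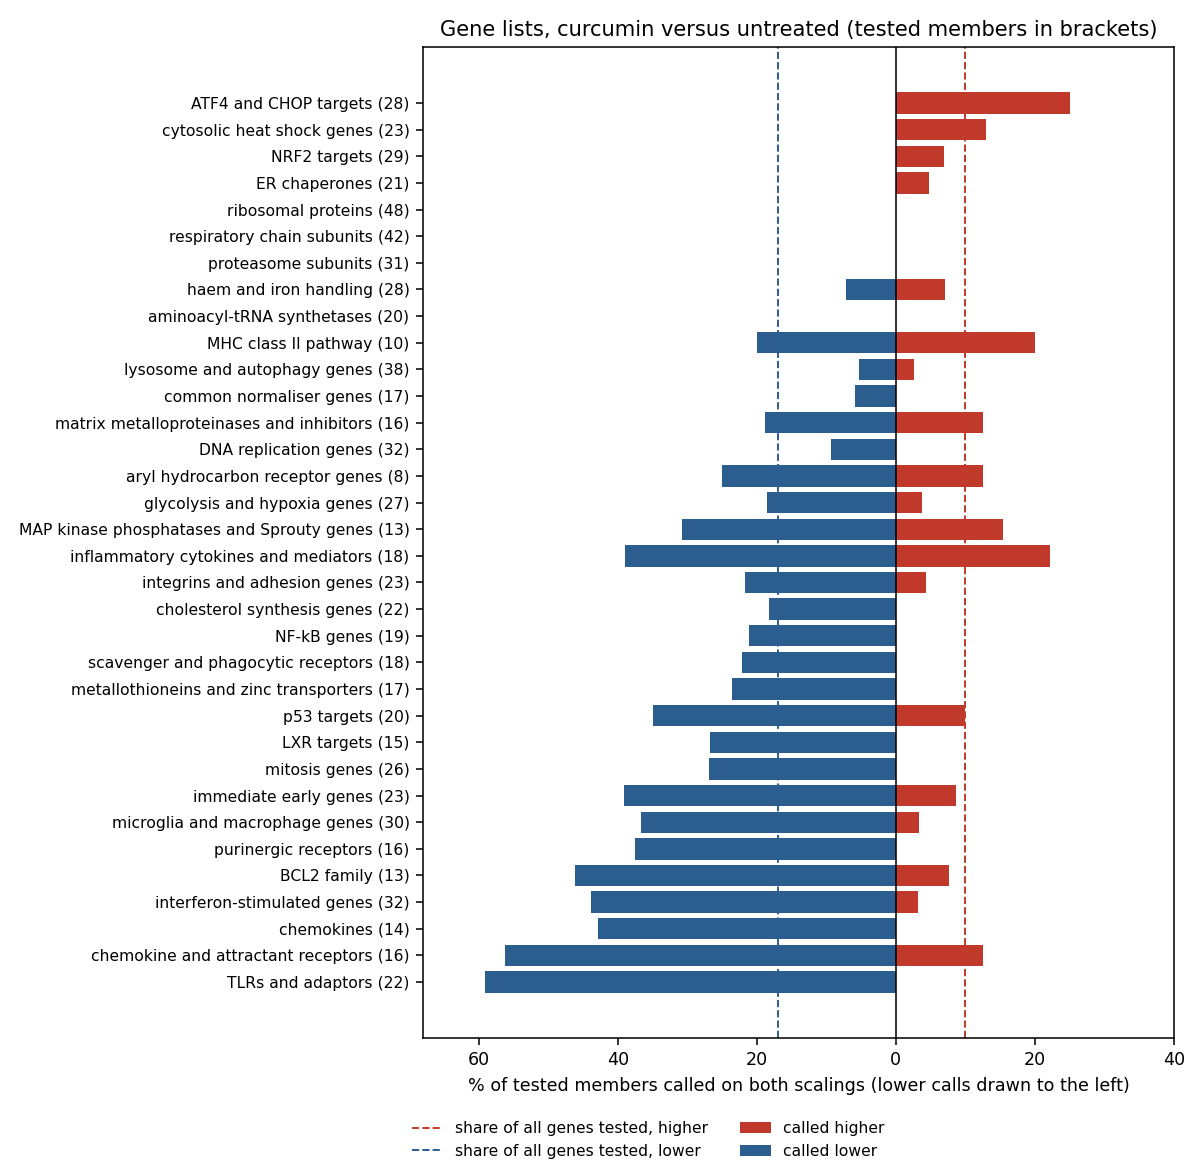
Percentage of the tested members of 34 gene lists called higher (red, to the right) or lower (blue, to the left) with curcumin on both scalings; dashed lines mark the same shares over all genes tested, 9.91% higher and 17% lower. ATF4 and CHOP targets reach furthest to the right, with no lower calls, and Toll-like receptors and attractant receptors furthest to the left.

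Of the lowest genes, Thbd (thrombomodulin, an anticoagulant receptor) read 19.8, 10.7 and 2.31% with curcumin and 151, 88.3 and 74.9% without (-3.66 ± 0.39, limma, adjusted p = 0.000355), and every curcumin array lay below every untreated array. St8sia4, which adds polysialic acid, had a log2 fold change of -2.81.

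The largest rises were in genes that read under 10% of the 75th percentile without treatment. Lin7b, a scaffold protein of neuronal synapses and epithelia, read 294, 333 and 376% with curcumin and 2.55, 1.34 and 2.24% without (169-fold, limma, adjusted p = 1.94e-06). Colec11, a soluble lectin of the complement system, read 164, 178 and 306% with curcumin and 1.43, 1.35 and 1.24% without (155-fold). Hkdc1, a hexokinase, read 92.5, 120.4 and 150.5% with curcumin and 0.323, 0.122 and 0.131% without, and rose at least 199.9-fold (94.1-fold on spike-in scaling). These genes serve unrelated tissues, and the same holds for Fgf18, a growth factor of cartilage (57.8-fold), Lct, intestinal lactase (39.2-fold), Baat, a bile acid enzyme of liver (at least 143-fold), Ampd1, the AMP deaminase of muscle (at least 243-fold), and Drc1, a regulator of ciliary motility (at least 98.5-fold). On spike-in scaling the bounds for Baat, Ampd1 and Drc1 were 67.3-fold, 114-fold and 46.4-fold. The cytokines Il17f (52.6-fold) and Ifna12 (68.4-fold) and the receptor Il17re (62.6-fold) were among the 15 highest of those well above background in both groups, and Ifna12 belongs to a family of near-identical genes that a probe may not separate. Aox1, aldehyde oxidase, rose 51.7-fold and was the only one of 8 aryl hydrocarbon receptor genes to rise, while the receptor Ahr and its partner Arnt (-1.10, with 1.06 at its other probe) fell. Ahr was well above background on 0 of 3 curcumin arrays, which bounds its fall at only 1.02-fold or more, and normexp correction turned its sign (0.49). Of the genes given here with a measured fold change, Cx3cr1 and Gpr34 were well above background on 2 of 3 curcumin arrays, and Hpx, Hspb1, Aox1, Il17f and Gas6 on 2 of 3 untreated arrays. In all, 699 genes and transcripts were well above background only with curcumin and 695 of these rose. They passed the filter through the curcumin arrays alone, so a difference was built into their choice. The 134 that were well above background only without treatment included 101 that fell, such as Prdm1 (BLIMP-1, a repressor of transcription), at least 2.7-fold lower, although normexp correction turned its sign (0.28).

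The place of the risers in the genome was described by their nearest genes. This was looked for after the fold changes had been seen, first with another definition of a neighbour, and is given as a description with no test. Neighbours were taken from RefSeq (GRCm38.p6), in which 10039 of the 12486 tested genes with a symbol had a strand, and 385 that overlapped a gene of the same strand were left out. A bright neighbour read 100% or more of the 75th percentile on untreated arrays and lay within 10 kb. Among the 837 risers compared, 176 (21.0%) had such a neighbour upstream on their own strand, against 10.1% of 7020 genes not called on both scalings and 7.29% of 1797 fallers. For bright genes downstream on the same strand the shares were 8.6%, 9.77% and 8.57%, and upstream on the other strand 5.73%, 10.6% and 6.90%. Split by untreated level, the upstream same-strand share was 18.8% of 664 risers against 4.39% of 774 uncalled genes under 3% of the 75th percentile. It was 35.8% of 95 against 7.73% of 556 at 3 to 10%, and 25.8% of 66 against 9.28% of 1380 at 10 to 100%. At 100% and over it was 0 of 12 risers against 11.7% of 4310 uncalled genes. Below 10% the split into risers and uncalled genes is partly set by the filter, which genes could pass through the curcumin arrays alone.

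Seen from the neighbour, the share of risers was lowest where the upstream gene lay furthest away, without an even order between the distances. Among 2236 genes under 10% of the 75th percentile on untreated arrays, those whose nearest same-strand upstream gene was bright rose in 70.5% of 78 cases within 2 kb, 68.8% of 77 at 2 to 5 kb, 58.0% of 88 at 5 to 10 kb, 61.5% of 109 at 10 to 20 kb, 45.9% of 135 at 20 to 50 kb and 31.0% of 168 at 50 kb or more. With a bright gene downstream on the opposite strand the share lay between 21.3% and 36.4% at every distance. With one upstream on the opposite strand it lay between 26.1% and 52.6%, highest at 5 to 10 kb, and with one downstream on the same strand between 31.5% and 50%. The 243 dim genes with a bright same-strand gene within 10 kb upstream had a median log2 fold change of 2.37, with 2.27, 2.39 and 2.57 in the 3 pairs, against 0.87 for the 1657 with no bright neighbour of any kind within that distance, and 65.4% against 29.5% rose. The 145 with a bright gene downstream on the same strand lay between these, with a median of 1.17 and 45.5% that rose, and a gene may have bright neighbours of several kinds. These shares are partly set by the filter, since 328 of the 2236 dim genes were not well above background on any untreated array and 327 of those rose. In a restriction added after seeing the data, among the dim genes well above background on all 3 untreated arrays, 50.3% of 169 with a bright same-strand gene upstream rose, against 25% of 104 with one downstream on the same strand, 28% of 93 with one upstream on the opposite strand, 20% of 165 with one downstream on the opposite strand and 12.8% of 1285 with no bright neighbour. Their median log2 fold changes were 1.51, 0.735, 0.858, 0.802 and 0.697 in the same order. Of the 30 highest risers compared, 8 (26.7%) had a bright same-strand gene within 10 kb upstream, as had 23 (23.0%) of the highest 100. Examples, picked from the highest genes that have one, are Lin7b after Snrnp70 (a spliceosome subunit), Colec11 after Rps7, Fam83e after Rpl18, Lct after Mcm6 and Hkdc1 after Supv3l1. Others of the highest genes, such as Gramd1c, Fgf18 and Il17f, had none by this definition. For the 176 risers with a bright same-strand gene close upstream, those upstream genes had a median log2 fold change of 0.30, beside 0.41 over all genes. Of the stress risers, Ddit3 has such a neighbour (Dctn2). A probe does not show where its transcript begins, and the place of transcript starts was not tested.

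**Figure D4:**
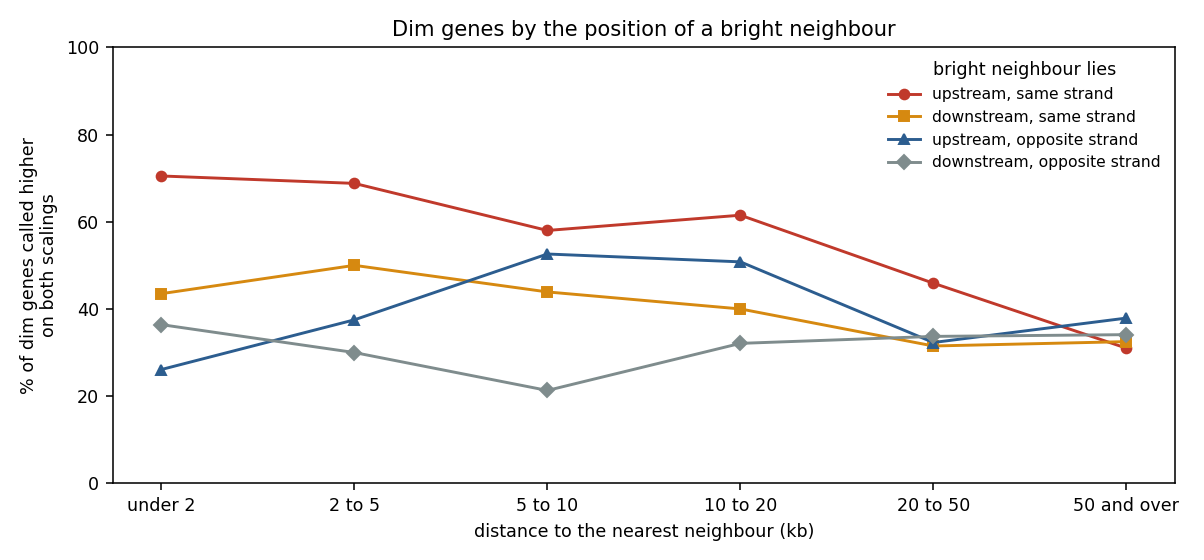
Percentage of genes dim on untreated arrays, including those not well above background there, that were called higher with curcumin on both scalings, by distance in kb to the nearest gene of each orientation where that neighbour was bright. The line for neighbours upstream on the same strand starts at 70.5% under 2 kb and ends at 31.0% at 50 kb and over, and that for downstream neighbours on the opposite strand stays between 21.3% and 36.4%.

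The LPS+curcumin and LPS arrays, which share no array with the comparison above but lie on the same slides, gave the same genes a second measurement. LPS+curcumin replicate 1 stood apart, with a mean correlation of 0.949 with the curcumin arrays against 0.984 for replicates 2 and 3, and of 0.976 with the untreated arrays, so values are given with and without its pair. LPS+curcumin replicate 2, which is kept in both, was unusual too. It had 1594 flagged spots other than controls, against at most 163 on any other array, and the highest spike-in signal of the series. In the 3 pairs, 2% of all tested genes were called higher and 1.97% lower on both scalings for LPS+curcumin against LPS, and without pair 1 6.25% and 7.72% (limma). Of the 1919 genes that rose with curcumin alone, 378 (19.7%) were called higher there and 12 lower, or 1152 (60.0%) and 14 without pair 1. Of the 3301 that fell, 243 (7.36%) were called lower and 1 higher, or 1180 (35.7%) and 4 without pair 1. Replicate 1 was set apart by its lower correlation with the curcumin arrays. Leaving it out therefore favours agreement with the curcumin calls, and the counts without pair 1 are no independent check. Hmox1 read 37660.0, 49440.0 and 53100.0% with LPS+curcumin and 5767, 3898 and 5109% with LPS. Colec11 read 13.4, 148 and 289% with LPS+curcumin and 1.38, 2.06 and 2.94% with LPS, so that its LPS+curcumin replicate 1 lay far below the other 2. Gpr183 read 24.9, 5.97 and 5.16% with LPS+curcumin and 69, 83.6 and 41% with LPS, all 3 lower. The 243 dim genes with a bright same-strand gene close upstream had medians of 0.03, 2.07 and 2.45 in the 3 LPS pairs, against 0.10, 0.88 and 1.38 for dim genes with no bright neighbour.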

How the data were processed

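RNA was labelled with Cy3 and hybridised to 1-colour Agilent arrays, per the labels' protocols. The deposited intensity values are the processed signals of Agilent's Feature Extraction software (per the file headers version 10.5.1.1, and 9.1 per the submitters' processing notes), already background-subtracted, and the deposited value table of the series differed from them by at most 0.397%. Levels are log2 of this signal minus each array's 75th percentile, or minus the median of 10 E1A spike-in probes. Control spots and outlier flags were left out. A gene was tested where all 3 arrays of either group showed a probe well above background, and its brightest such probe stood for it. limma 3.58.1 (R 4.3.3) fitted the 6 arrays with the replicate as a block, and p-values were adjusted by Benjamini-Hochberg over all 19373 genes and transcripts. The replicate number is the slide, and deviations of same-numbered arrays correlated at 0.579, 0.214 and 0.337. The members, lists and design were chosen with earlier results of these data known. Named genes are the 15 highest and 15 lowest of those called on both scalings in all 3 pairs and well above background on at least 2 arrays of both groups, 6 bounds per direction, up to 4 called members of each list by adjusted p, and a panel of known curcumin-response genes. The other genes named were chosen after their values were seen, and a few genes are not reported here. The code was tested on simulated data. Normexp used the median signal, and 4 spots with backgrounds over 100 times their array's median were given that median, since without this the fit failed on curcumin replicate 1. Alternatives covered scaling, background, filters, the block, the arrays fitted, probes and left-out pairs.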

Additional observations from a re-analysis of the deposited data

Results flagged for a closer look

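Of 142 named genes compared pair by pair, 4 had one direction in every pair of curcumin against untreated and the opposite one in every pair of LPS+curcumin against LPS. The difference was not tested. Csf3 (G-CSF) had a fitted log2 fold change of 5.13 with curcumin alone (4.38, 5.36 and 5.64 in the pairs), sizes that are not measured exactly because 0 of 3 untreated arrays showed it well above background and only a rise of at least 9.49-fold (4.47-fold on spike-in scaling) is bounded. It gave -4.64, -7.54 and -6.51 in the LPS pairs. Isg20 gave 2.52 (2.10, 2.59 and 2.88), and -3.39, -3.59 and -2.52 in the LPS pairs. Fas gave 1.96 (0.98, 2.38 and 2.51), and -1.31, -2.39 and -2.40 in the LPS pairs. On spike-in scaling Fas gave -0.053 in pair 1 of curcumin alone, so its direction there was not the same in every pair. Mmp13, a collagenase, gave 1.71 (1.08, 2.09 and 1.96, with only 0.044 in pair 1 on spike-in scaling), and -2.61, -3.69 and -2.58 in the LPS pairs. Groups of 3 arrays were not tested for outlying samples.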

How the results depend on the processing

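The number of genes called on both scalings was 5220 with the replicate block and 4431 without the replicate block, 4427 of them shared, and 4393 to 4437 when 1 pair was left out. On 75th percentile scaling, 10683 genes were called without the replicate block against 12673 with it. The design of 6 paired arrays gave more calls than fits over all 12 arrays: those called 8263 with the block (6108 higher, 2155 lower) and 5746 without it (4298 higher, 1448 lower), and 11843 (8761 higher, 3082 lower) were called with the block over 11 arrays, LPS+curcumin replicate 1 left out. Of 151 named genes called, 131 stayed called with every pair left out in turn, and those that lost their call include Tnf, Birc2, Fcgr1, Fcgr2b, Plk1, Mki67, Tfeb, Fnip1 and Tbp. Higher calls numbered 1919 on spike-in, 4372 on quantile and 2293 on median scaling, and 18361 with no filter on dim probes (21083 in all). Lower calls numbered 12891 relative to spike-ins and 9661 relative to the median. Of all calls, the share higher was 74% on 75th percentile, 13% on spike-in, 47.3% on quantile, 19.2% on median and 68.4% on always-detected scaling, and 87.1% with no filter. The shift of the 75th percentile against the spike-ins was -0.965 with normexp, and the array median in its place shifted by -0.249. Normexp was run with outlying backgrounds replaced, a step chosen after seeing the data: without it the fit failed on curcumin replicate 1.

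Signs turned under normexp in dim genes, with log2 fold changes of 0.11 for Tlr3, 0.28 for Prdm1, 0.20 for Kynu, 0.18 for Pdcd1, 0.31 for Mab21l3, 0.40 for Tnip3, 0.063 for Gpr34, 0.23 for Itgb3, 0.49 for Ahr, 0.29 for Il1b, 0.59 for Il6, 0.13 for Ptgs2 and 0.18 for Pparg. Relative to spike-ins and to the median, Arg1 gave -0.30 and -0.048 (-0.13 on quantile), Txnrd1 -0.28 and -0.032, Srxn1 -0.48 and -0.23, Cdkn1a -0.30 and -0.048, and Nfkbia -1.002 and -0.75 (-0.29 on quantile, -0.023 on always-detected scaling). With 1 pair left out, Nfkbia ranged over -0.14 (without pair 1) and 0.26 (without pair 3), Il6 over -0.18 and 0.11 (without pairs 2 and 3), and Pparg gave 0.075 without pair 1 and 0.11 without pair 2. The mean over probes gave 0.36 for Kif11, 0.076 for Stard4, 0.40 for Mylip and 0.235 for Fnip1. Other probes, tried after seeing the data, gave 0.49 for Pcdh7, 0.60 for Mtf1, 0.998 for Cx3cr1, 0.14 for Parp14, 0.44 for Bmf, 1.34 for Kif11, 0.059 for Hmgcs1, 0.44 and 0.43 for Stard4, 1.54 for Mylip, 0.043, 0.29 and 1.03 for Fnip1 and 1.06 for Arnt. In all, 396 of 4471 genes with more than 1 tested probe had probes called in opposite directions. The cause of these changes was not tested.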
